A study of Homo sapiens with 6 samples.

Results

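A set of 10 genes of the NF-kB system, among the 24462 gene symbols in the count files, were followed in the human colonic epithelial cell line 1CT and in 1CT-A, in which APC is knocked down. They were taken by symbol, and each symbol was entered 1 time in every file. They are the 5 subunit genes NFKB1, NFKB2, RELA, RELB and REL, the inhibitor genes NFKBIA and NFKBIB, and TNFAIP3, BIRC3 and TNFAIP2, which TNF or NF-kB itself induces. The 6 libraries are 3 of 1CT, with the genotype given as WT, and 3 of 1CT-A, with the genotype given as APC KD. All were untreated, and both cell lines grew in the same medium with 20 ng/ml epidermal growth factor, 1 μg/ml hydrocortisone, 10 μg/ml insulin, 2 μg/ml transferrin, 5 nM sodium selenite and 2% FBS. The cells are immortalized with telomerase, and whether 1CT-A is a single clone is not given in the sources used here. The titles of the 1CT libraries name no scrambled shRNA, so the knockdown cannot be told apart from other differences between the cell lines. Libraries were made from 500 ng of total RNA with a kit that reads the 3′ ends of transcripts. On GRCh38 (GENCODE release 44) the subunit genes are NFKB1 at chr4:102501330-102617302 (plus strand), NFKB2 at chr10:102394110-102402524 (plus strand), RELA at chr11:65653599-65663090 (minus strand), RELB at chr19:45001461-45038192 (plus strand) and REL at chr2:60881491-60931612 (plus strand). The inhibitor genes are NFKBIA at chr14:35401079-35404749 (minus strand) and NFKBIB at chr19:38899700-38908893 (plus strand), and the induced genes are TNFAIP3 at chr6:137867214-137883314 (plus strand), BIRC3 at chr11:102317484-102339403 (plus strand) and TNFAIP2 at chr14:103121476-103137439 (plus strand). Genes annotated on the opposite strand overlap RELA, NFKBIB, TNFAIP3, BIRC3 and TNFAIP2. The overlap runs from 103 bases at RELA to 11103 of the 21920 bases of BIRC3, and SIRT2 shares 163 bases with NFKBIB. The gene over BIRC3 is not in the count files. Since the use of strand in counting is not given, reads within the shared stretches cannot be told apart from those of the members.

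NF-kB is a family of dimeric transcription factors that carry signals of TNF, interleukin-1, Toll-like receptors and related receptors to genes of inflammation, survival and adhesion. In resting cells IkB proteins hold most dimers in the cytoplasm, and the IkB kinases release them. The canonical branch works mainly through RELA with the NFKB1 product, and the non-canonical branch through RELB with the NFKB2 product. Several of the induced genes encode brakes on the same signal, so the pathway limits itself. In the colon this system helps to set how the epithelium answers bacteria and cytokines.

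The count files held 7788679 to 8452258 reads per 1CT library and 11158108 to 12602988 per 1CT-A library, and 3 counts, taken as the smallest visible level, stood for 0.355 to 0.385 CPM and 0.238 to 0.269 CPM. CPM here is the count per 1000000 counts of the library, and the limit covers counting error only. APC itself had 417, 363 and 363 counts in 1CT and 351, 342 and 433 in 1CT-A, which is 46.6 ± 2.75 against 31.9 ± 2.21 CPM (SD, n = 3). The knockdown line thus had less APC transcript, by -0.58 ± 0.09 on the log2 scale (estimate and standard error, edgeR adjusted p = 1.8e-04). The label of a colonic epithelium was not borne out by its markers. Of 11 colon epithelial genes, 7 had at most 3 counts in every library, and EPCAM, VIL1, CDX1 and MUC2 were at 0 throughout. Summed over the list, 1CT held 13.4 to 17.6 CPM and 1CT-A 3.23 to 7.20 CPM, mostly keratin counts, and KRT19 had 20, 27 and 34 counts in 1CT and 0 in each 1CT-A library. The 10 mesenchymal genes, among them VIM and COL1A1, summed to 4791 to 5771 CPM and 4334 to 4646 CPM. These sums hide a split, since edgeR's test at an adjusted p under 0.05 called 3 of the genes higher in 1CT-A and 5 lower, with 2 not called. COL3A1 rose from a mean of 47.8 to 253 CPM (log2 fold change 2.37), and S100A4 fell from 114 to 27.7 CPM (log2 fold change -2.08). COL3A1 and S100A4 were named after their values were seen. PTPRC, the pan-leukocyte marker, and CDH5, an endothelial marker, had no count in any library. The 8 leukocyte genes, mostly CD68, reached 12.7 to 15.6 CPM together in 1CT and 9.44 to 10.4 CPM together in 1CT-A. The 5 endothelial genes summed to 3.60 to 6.52 CPM and 1.08 to 2.55 CPM. The part of these markers in the results below was not tested.

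In 1CT-A, 6 of the 10 NF-kB genes were lower and the other 4 did not pass the test. TNFAIP3, TNFAIP2 and BIRC3 fell most, by 9.45-fold, 7.34-fold and 6.30-fold, and RELB fell by 2.85-fold. NFKB2 and REL fell less, by 1.89-fold and 1.56-fold. The main canonical subunit genes RELA and NFKB1 and the inhibitor genes NFKBIA and NFKBIB were not called. All 10 genes passed the filter on low counts, TNFAIP3 and BIRC3 through the 1CT libraries. Each of the 10 also had at least 10 counts in every library. With a threshold of 0.05 on the adjusted p of edgeR's quasi-likelihood test, 0 members were higher and 6 lower, where 51.0% of all 12514 genes tested were called, 25.0% higher and 26.0% lower. At an unadjusted p under 0.05 the counts were also 0 and 6, and no other tool or setting that was run called a member higher. With the thresholds that the study's methods set, a 2-fold change together with an unadjusted p under 0.01, 4 members were lower and 0 higher, against 9.60% and 3.80% of all genes. The values of the 2 cell lines did not overlap for 6 members, all lower in 1CT-A, as for 27.9% of all genes. The smallest p that exact permutation allows for a single gene with 3 libraries a side is 0.1, so the calls rest on the fit across all genes. Nothing says whether the libraries came from separate cultures, so the p-values measure the spread between these libraries. In bulk RNA a lower level per cell and fewer cells with the transcript cannot be told apart.

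**Figure D1:**
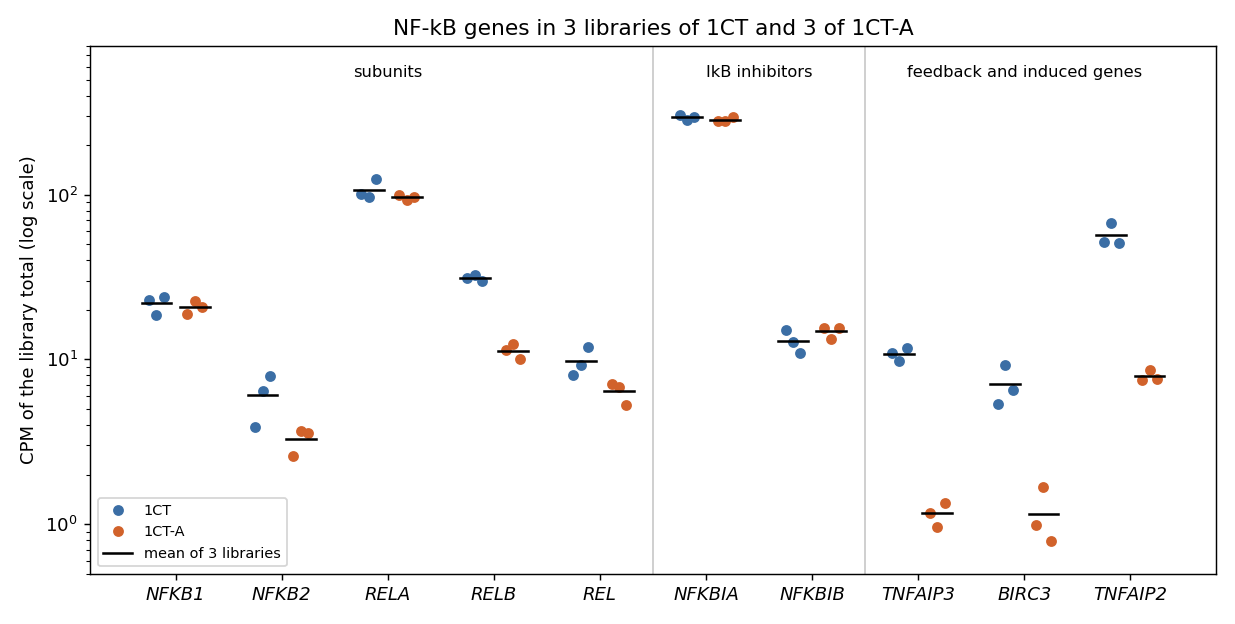
Level of each of the 10 genes in every library, in CPM of the library total on a log axis; points are libraries, blue for 1CT and orange for 1CT-A, and lines are means of 3 libraries. TNFAIP3, BIRC3, TNFAIP2 and RELB stand clearly apart between the cell lines, while the points of NFKB1, RELA, NFKBIA and NFKBIB overlap.

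Among the subunits, RELB, the non-canonical subunit that activates transcription, had 265, 268 and 232 counts in 1CT and 127, 141 and 126 in 1CT-A. As CPM these were 31.4, 32.4 and 29.8 in 1CT and 11.4, 12.4 and 10.0 in 1CT-A. Every 1CT-A library thus lay far below the lowest 1CT library, although the 1CT-A libraries are deeper. On the log2 scale the difference was -1.51 ± 0.12 (estimate and standard error, adjusted p by edgeR = 3.3e-07), and it stayed between -1.57 and -1.42 when libraries were left out singly.

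NFKB2 encodes the precursor that is cut to give the partner of RELB. It was at 3.90, 6.40 and 7.96 CPM in 1CT, from 33, 53 and 62 counts, and at 2.60, 3.69 and 3.57 CPM in 1CT-A, from 29, 42 and 45 counts. The groups did not overlap, but the lowest 1CT library and the highest 1CT-A library differed by little. The fitted log2 difference was -0.92 ± 0.27 (estimate and standard error, adjusted p by edgeR = 0.012). Without 1CT replicate 3 it was -0.66 and no longer past the threshold (edgeR adjusted p = 0.055), and its adjusted p ran from 9.2e-04 to 0.12 over the 14 alternatives.

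REL, the subunit c-Rel best known from lymphoid cells, was at 8.05, 9.30 and 11.8 CPM in 1CT and at 7.08, 6.76 and 5.32 CPM in 1CT-A. Here too the groups were close without overlapping. edgeR put the log2 difference at -0.64 ± 0.19 (estimate and standard error, adjusted p by edgeR = 0.012). It fell short of the threshold without 1CT replicate 3 (-0.47, edgeR adjusted p = 0.052) and without 1CT-A replicate 3 (-0.52, edgeR adjusted p = 0.061), and over the 14 alternatives the adjusted p ran from 0.0042 to 0.086. A long non-coding RNA gene annotated on the same strand, which is not a row of the count files, shares 5702 bases with REL, so reads of the pair may not be separable.

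RELA, the main activating subunit of the canonical branch, had CPM of 100.4, 97.1 and 125 in 1CT and 99.8, 93.1 and 96.5 in 1CT-A. The libraries overlapped, and 1CT replicate 3 stood above the other 5. The estimated log2 change was -0.19 ± 0.10 (estimate and standard error, adjusted p by edgeR = 0.12). NFKB1, its usual partner, was at 22.8, 18.7 and 24.0 CPM in 1CT and at 18.9, 22.7 and 20.7 CPM in 1CT-A. Its groups were interleaved, with an estimate of -0.11 on the log2 scale (error 0.12, adjusted p by edgeR = 0.48). Neither gene was called under any of the 14 alternatives.

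Neither of the inhibitor genes was called. NFKBIA encodes IkB alpha, which binds canonical dimers, is destroyed on stimulation and is made again as an NF-kB target. It had 2565, 2353 and 2299 counts in 1CT and 3126, 3170 and 3714 in 1CT-A, or 304, 284.1 and 295.2 CPM against 280.2, 278.2 and 294.7 CPM. Once scaled to depth the libraries overlapped, and on the log2 scale the difference was -0.09 ± 0.07 (estimate and standard error, adjusted p by edgeR = 0.28). NFKBIB, which encodes IkB beta, was at 15.1, 12.7 and 10.9 CPM in 1CT and at 15.5, 13.2 and 15.5 CPM in 1CT-A. These values overlapped as well, with an estimate of 0.15 on the log2 scale (error 0.15, adjusted p by edgeR = 0.40).

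The 3 induced genes all fell. TNFAIP3 encodes a ubiquitin-editing enzyme that shuts down TNF receptor and Toll-like receptor signals to the IkB kinases. It had 93, 81 and 91 counts in 1CT and 13, 11 and 17 in the deeper 1CT-A libraries. As CPM these were 11.0, 9.78 and 11.7 against 1.17, 0.966 and 1.35, so the levels in 1CT-A were low but above the limit of 3 counts in each library. The fitted log2 difference was -3.24 ± 0.22 (estimate and standard error, adjusted p by edgeR = 1.2e-07), and -2.48 on the log2(CPM + 1) scale, which understates changes of low genes.

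BIRC3 encodes cIAP2, a ubiquitin ligase of the TNF receptor complex. It had 45, 77 and 51 counts in 1CT and 11, 19 and 10 in 1CT-A, which is 5.32, 9.30 and 6.55 CPM against 0.986, 1.67 and 0.794 CPM. Replicate 2 was the highest library in both cell lines, and the groups remained well apart. edgeR put the log2 difference at -2.65 ± 0.31 (estimate and standard error, adjusted p by edgeR = 1.4e-05), no nearer to 0 than -2.41 when libraries were left out singly.

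TNFAIP2, named for its induction by TNF and known for a part in membrane protrusions, had 435, 558 and 397 counts in 1CT and 84, 98 and 96 in 1CT-A. In CPM it was at 51.5, 67.4 and 51.0 in 1CT and at 7.53, 8.60 and 7.62 in 1CT-A. The 1CT-A libraries lay close together and far below 1CT. The estimated log2 change was -2.88 ± 0.13 (estimate and standard error, adjusted p by edgeR = 3.2e-09).

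**Figure D2:**
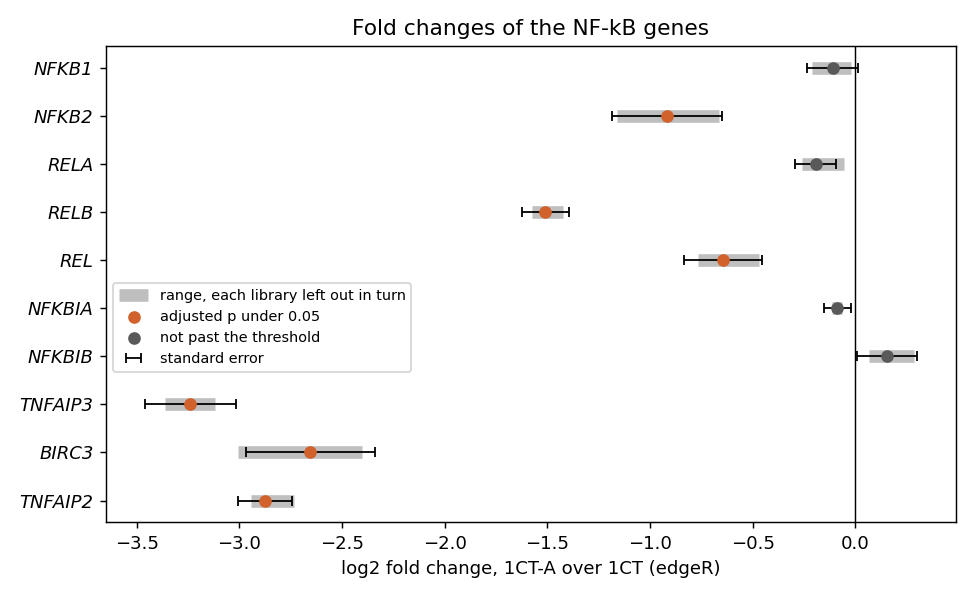
Log2 fold change of 1CT-A over 1CT for each of the 10 genes; points are edgeR estimates, thin bars their standard errors, grey bars the range when libraries were left out singly, and orange marks an adjusted p under 0.05. The induced genes lie between -3.24 and -2.65, RELB at -1.51, and the 4 genes that were not called between -0.19 and 0.15.

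The unequal changes were also read within each library, where scaling between libraries plays no part. The log2 ratio of NFKB2 and RELB counts to those of NFKB1, RELA and REL was -1.90, -1.69 and -2.09 in 1CT and -3.17, -2.93 and -3.17 in 1CT-A. The non-canonical pair thus moved by -1.2 on the log2 scale relative to the other subunits, from -1.89 ± 0.20 to -3.09 ± 0.14 (SD, n = 3). The log2 ratio of the 3 induced genes to the 5 subunit genes was -1.30, -0.92 and -1.52 in 1CT and -3.85, -3.63 and -3.80 in 1CT-A, a difference of -2.51. The log2 ratio of NFKBIA and NFKBIB to the 5 subunit genes was 0.94, 0.86 and 0.63 in 1CT and 1.08, 1.07 and 1.19 in 1CT-A, a difference of 0.31 upward. Neither inhibitor gene was called, while 3 of the 5 subunit genes were called lower. None of the 3 ratios overlapped between the cell lines. Each had an exact permutation p of 0.1, two-sided and also 0.1 after adjustment over the 3 ratios, the smallest p that 3 libraries against 3 allow. Summed counts follow the genes with most reads, and with the genes weighted equally on the log2(CPM + 1) scale the differences were -0.80, -1.78 and 0.64 in the same direction. With libraries left out singly the differences ran from -1.30 to -1.10, from -2.65 to -2.35 and from 0.22 to 0.37. Without 1CT-A replicate 3 the inhibitor ratio differed by 0.27, with an exact permutation p of 0.2.

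**Figure D3:**
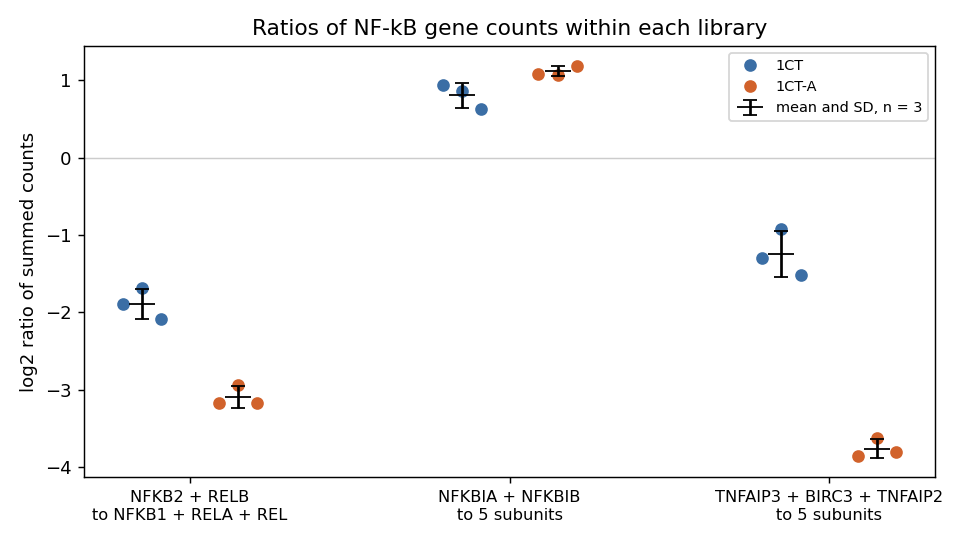
Log2 ratios of summed counts within each library, with points for libraries and black bars for the mean and SD of 3. The ratio of the non-canonical to the other subunits and that of the induced genes to the subunits were lower in every 1CT-A library, and the ratio of the inhibitors to the subunits was higher.

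Many NF-kB family genes carry sites for NF-kB itself, and the promoters of members were therefore searched for the kB consensus decamer, on both strands, in the 250 bases before each start site that RefSeq gives on GRCh38.p14. The table held windows for 9 of the 10 genes and none for RELB. At least 1 match was present in 7 of them, where 15.6% of the 9331 tested genes with a window held one and 11.8% of all 27305 genes in the table. Matches were found for 4 of the 5 lowered genes with a window (TNFAIP3, BIRC3, NFKB2 and REL, with TNFAIP2 lacking one) and for 3 of the 4 that were not called (NFKB1, NFKBIA and NFKBIB, with RELA lacking one). Genes with and without a match were thus found on both sides. By the GENCODE gene positions, the matches of NFKB2, REL and NFKBIB lie within the gene, after its first annotated start. The whole window of TNFAIP2 does so as well. Only the matches of TNFAIP3, BIRC3, NFKBIA and NFKB1 lie before the first annotated start. Over all tested genes with a window, 30.2% of those with the consensus and 24.5% of those without were called lower, and 23.4% and 26.0% were called higher, given here as a description with no test. NFKB1, NFKBIB and RELA have 2 windows each and NFKB2 has 3, and a gene was counted when any window matched.

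The 200 bases before the first annotated start are shown for a pair of genes that fell steeply and a pair that were not called, from 5′ to 3′ on the strand of the gene, with kB matches in capitals. The windows are TNFAIP3 at chr6:137867014-137867213 (plus strand), BIRC3 at chr11:102317284-102317483 (plus strand), NFKBIA at chr14:35404750-35404949 (minus strand) and NFKB1 at chr4:102501130-102501329 (plus strand).
TNFAIP3: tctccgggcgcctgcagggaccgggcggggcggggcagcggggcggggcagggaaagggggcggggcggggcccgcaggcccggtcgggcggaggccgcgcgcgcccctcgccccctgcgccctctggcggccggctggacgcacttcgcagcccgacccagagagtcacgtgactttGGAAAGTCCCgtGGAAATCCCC
BIRC3: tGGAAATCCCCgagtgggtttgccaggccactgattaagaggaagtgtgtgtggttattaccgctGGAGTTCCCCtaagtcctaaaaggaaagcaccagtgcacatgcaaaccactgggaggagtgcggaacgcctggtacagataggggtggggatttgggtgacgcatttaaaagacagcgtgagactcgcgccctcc
NFKBIA: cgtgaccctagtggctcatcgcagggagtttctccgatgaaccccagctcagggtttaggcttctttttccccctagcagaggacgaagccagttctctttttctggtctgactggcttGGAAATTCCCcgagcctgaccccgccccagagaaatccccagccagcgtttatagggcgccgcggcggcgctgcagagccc
NFKB1: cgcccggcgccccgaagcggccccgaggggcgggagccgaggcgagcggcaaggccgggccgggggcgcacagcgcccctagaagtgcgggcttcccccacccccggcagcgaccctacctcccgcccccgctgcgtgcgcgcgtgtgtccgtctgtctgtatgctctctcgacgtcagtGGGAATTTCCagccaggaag
The 2 matches of TNFAIP3 lie at the downstream end of its stretch, and those of BIRC3 lie further upstream. A match is a string of letters and does not show that a factor binds there.

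The rest of the pathway was read from 7 lists holding 104 further genes, of which 80 had enough counts to be tested. In edgeR's test 16 were higher in 1CT-A, 33 lower and 31 not called. The called share was 61.25%, where 51.0% of all 12514 genes tested were called, 25.0% higher and 26.0% lower. By list it ran from 27.3% of the tested IkB kinase genes to 82.6% of the tested target genes. The median log2 fold change of the 80 genes was -0.17, beside -0.0067 over all genes tested and -0.78 over the 10 members. Some of the 80 passed the filter on low counts only through the line where they are high. No support is therefore drawn from the called share or the median. With at least 10 counts required in every library, 11 were called higher and 26 lower.

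Among 6 other IkB proteins and IkB-binding proteins, 3 were lower, 1 higher, 1 not called and 1 too low to test. BCL3, a nuclear IkB relative that works with dimers of the NFKB1 and NFKB2 products, rose from 49.4 ± 2.21 to 108 ± 1.18 CPM (SD, n = 3), an estimate of 1.10 on the log2 scale (error 0.08, adjusted p by edgeR = 1.7e-07). NKIRAS2, a small GTPase that binds IkB, fell from 80.5 ± 5.18 to 64.6 ± 4.57 CPM (SD, n = 3). The other falls were in NFKBIE, which encodes IkB epsilon (-1.65 on the log2 scale, edgeR adjusted p = 4.1e-05), and NFKBIZ, a nuclear IkB (-1.13, edgeR adjusted p = 0.0030), both named after their values were seen.

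The IkB kinase list had 12 genes, with 1 higher, 2 lower, 8 not called and 1 not tested. CHUK, the kinase IKK alpha of the non-canonical branch, rose from 34.4 ± 8.90 to 62.1 ± 3.97 CPM (SD, n = 3; log2 fold change 0.81, edgeR adjusted p = 3.8e-04). IKBKE, an IKK-related kinase, fell from 9.04 ± 1.18 to 5.09 ± 1.01 CPM (SD, n = 3; log2 fold change -0.86, edgeR adjusted p = 0.0021). The other fall was MAP3K14, the kinase that starts non-canonical signalling (log2 fold change -0.90, edgeR adjusted p = 0.0032), named after its value was seen. Those not called included IKBKB, the canonical kinase, at 18.9 ± 0.97 and 15.9 ± 1.85 CPM (SD, n = 3), and IKBKG, the scaffold of the kinase complex, at 18.7 ± 2.08 and 18.8 ± 1.01 CPM (SD, n = 3), also chosen afterwards.

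Of 23 adaptors and ubiquitin enzymes, 3 were higher, 7 lower, 12 not called and 1 not tested. TNIP1, whose product works with that of TNFAIP3, fell from 75.7 ± 7.76 to 33.0 ± 0.42 CPM (SD, n = 3; log2 fold change -1.23). BIRC2, the paralog and genomic neighbour of BIRC3, fell from 210 ± 17.5 to 114 ± 6.01 CPM (SD, n = 3; log2 fold change -0.91). The TNF receptor adaptor TRADD (-0.76 on the log2 scale) and SHARPIN (-0.70), a subunit of the linear ubiquitin ligase, fell as well, and these 4 genes had an edgeR adjusted p of at most 0.0081. UBE2N, a ubiquitin-conjugating enzyme for K63 chains, rose by 0.59, TRAF2 by 0.45 and IRAK1 by 0.22 on the log2 scale. The call of IRAK1 (edgeR adjusted p = 0.044) was lost under 7 of 14 alternatives, among them the fit with the replicate number as a block (adjusted p = 0.060).

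Of 13 TNF family receptors, 2 were higher, 4 lower and 4 not called. TNFRSF21, a death receptor, rose from 18.3 ± 4.13 to 40.5 ± 4.03 CPM (SD, n = 3; log2 fold change 1.11, edgeR adjusted p = 2.2e-05). TNFRSF10B, a receptor for TRAIL, fell from 122 ± 7.77 to 93.3 ± 2.07 CPM (SD, n = 3; log2 fold change -0.43, edgeR adjusted p = 4.0e-04). TNFRSF1B, the second TNF receptor, was at 32.6 ± 3.12 and 27.3 ± 1.80 CPM (SD, n = 3), and its call (edgeR adjusted p = 0.032) was lost under 9 of 14 alternatives, the replicate block included (adjusted p = 0.051). CD40, a receptor of the non-canonical branch, had 69, 59 and 41 counts in 1CT and 1, 6 and 4 in 1CT-A, a fitted difference of -4.44 on the log2 scale (edgeR adjusted p = 9.1e-07). TNFRSF11A, the receptor RANK, which also signals through the non-canonical branch, went the other way, with 6, 1 and 9 counts in 1CT and 45, 48 and 46 in 1CT-A (log2 fold change 2.54, edgeR adjusted p = 2.3e-04). LTBR and TNFRSF12A, further receptors of that branch, were not called, with log2 fold changes of -0.08 and -0.07. TNFRSF1A, the main TNF receptor, was not called either, at 259 ± 15.6 and 278 ± 3.14 CPM (SD, n = 3). These 4 receptors were chosen after their values were seen. CD40 passed the filter on low counts only through 1CT and TNFRSF11A only through 1CT-A, where each is high. No support is drawn from these calls. With at least 10 counts required in every library, 4 receptors were called.

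Of 15 ligands, 10 were too low to test, and 6 had at most 3 counts in every library, among them TNF, LTA and IL1A. TNF itself had 1, 0 and 2 counts in 1CT and 0 in each 1CT-A library, so its level was not visible in either line. Of the 5 tested, 4 were called, all lower, but TNFSF4, TNFSF9 and TNFSF13 reached the filter through the 1CT libraries, where they are high, so no direction of the list is read from this count. With at least 10 counts required in every library, 1 ligand was called. IL1B, which was too low to test, had 2, 3 and 1 counts in 1CT and 4, 12 and 13 in 1CT-A. TNFSF9, TNFSF13 and IL1B were named after their values were seen. TNFSF4, the OX40 ligand, had 218, 218 and 155 counts in 1CT and 5, 7 and 16 in 1CT-A, an estimate of -4.93 on the log2 scale (error 0.25, adjusted p by edgeR = 7.8e-09). Since it passed the filter through 1CT, no support is drawn from that p.

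The list of 30 known NF-kB target genes did not move one way. Of 23 tested, 7 were higher, 12 lower and 4 not called, with a median log2 fold change of -0.38. Some passed the filter on low counts through the line where they are high, among them SAA1 through 1CT and TNFAIP6 through 1CT-A. With at least 10 counts required in every library, 13 were called, and no direction of the list is read from these counts. The adhesion receptor gene VCAM1 fell from 38.4 ± 4.89 to 2.61 ± 0.56 CPM (SD, n = 3; log2 fold change -3.92). CFLAR, the inhibitor of caspase activation at death receptors, fell from 130 ± 14.8 to 42.8 ± 5.16 CPM (SD, n = 3; log2 fold change -1.64), and the chemokine gene CCL2 by 1.15 on the log2 scale. SAA1, an acute phase protein gene, had 314, 386 and 278 counts in 1CT and 3, 53 and 9 in 1CT-A. Its log2 fold change was -4.45, and -6.30 without 1CT-A replicate 2, so that 1 library sets its size but not its direction. On the other side, the neutrophil chemokine gene CXCL3 rose from 1.83 ± 0.16 to 17.3 ± 1.56 CPM (SD, n = 3; log2 fold change 3.19) and CXCL1 from 13.7 ± 3.51 to 25.9 ± 5.02 CPM (SD, n = 3; log2 fold change 0.87). CXCL1 and CXCL3 are close paralogs whose reads the counting could have split. PLAU, the urokinase gene, rose by 1.66 and SOD2, mitochondrial superoxide dismutase, by 0.44 on the log2 scale. The 4 falls had an edgeR adjusted p of at most 9.0e-06 and the 4 rises of at most 0.0013. No support is drawn from the p of SAA1, which passed the filter through 1CT.

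The name TNF alpha induced did not mark a common direction either. Of the 6 other genes that carry it, 3 were higher, 1 lower, 1 not called and 1 not tested. TNFAIP8 rose from 27.0 ± 2.66 to 50.9 ± 4.70 CPM (SD, n = 3) and TNFAIP8L3 from 15.8 ± 0.98 to 24.1 ± 1.43 CPM (SD, n = 3), while TNFAIP1 fell from 108 ± 2.60 to 67.6 ± 1.67 CPM (SD, n = 3), with an edgeR adjusted p of at most 8.2e-04 for each. TNFAIP6, named after its value was seen and also on the target list, had 1, 3 and 0 counts in 1CT and 34, 43 and 40 in 1CT-A. It passed the filter on low counts only through 1CT-A, where it is high.

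**Figure D4:**
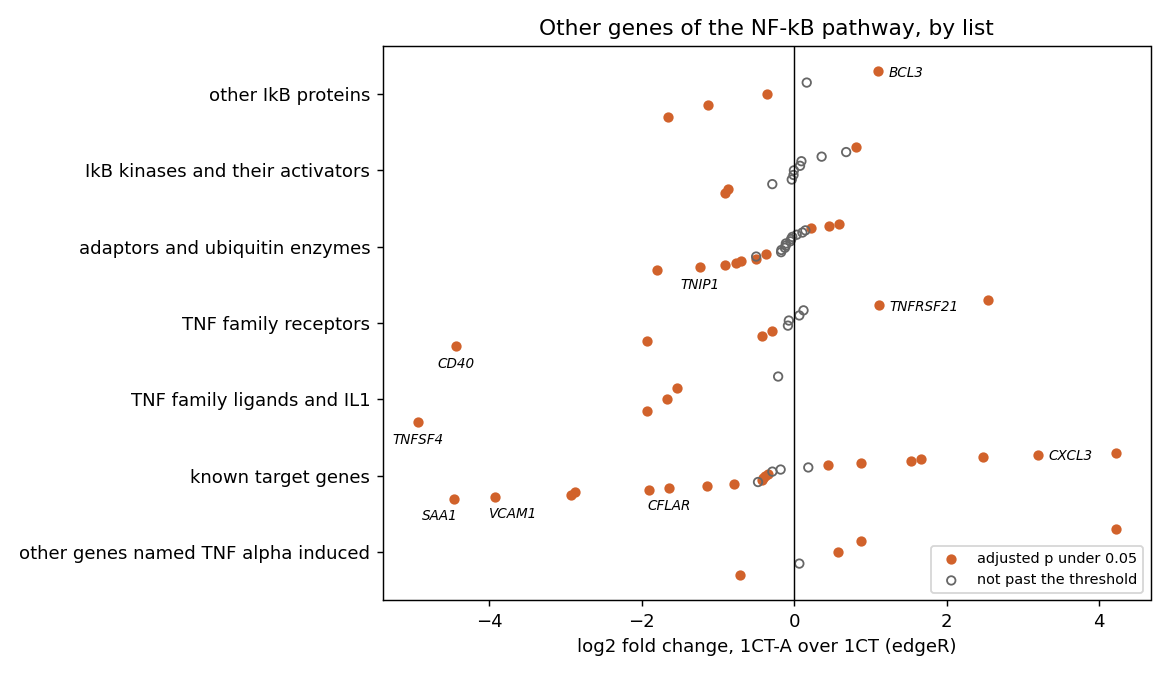
Log2 fold change of 1CT-A over 1CT for each tested gene of the 7 lists, 1 point a gene, filled where the adjusted p is under 0.05; TNFAIP6, the rightmost point of the lower 2 lists, stands at a fitted value that is no bound. The ligand list has 5 points, 3 of them genes that passed the filter on low counts through the 1CT libraries, and the target list spreads from SAA1 at -4.45 to beyond CXCL3 at 3.19.

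TNFAIP3, the member with the largest change, was compared with the 104 pathway genes by profile. The nearest, by the root mean square distance between centred log2(CPM + 1) values over the 6 libraries, were CD40 (0.286), CFLAR (0.457) and CCL20 (0.472). Because TNFAIP3 was picked for its difference between the lines, a short distance mostly marks a difference of similar size. CD40 and CCL20, like TNFAIP3, passed the filter on low counts through the 1CT libraries. No support is drawn from this ranking.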

How the data were processed

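The authors deposited 1 file of raw counts per library, with whole numbers of reads per gene symbol, no normalization and no pooling. The submitters' processing notes name Bowtie2, edgeR and hg19 without roles; the annotation, the read filters and the use of strand are not given in the sources used here, so overlapping genes are uncertain. The paper and the labels describe RNA extraction and the platform differently, and the labels were followed. Here, counts of 286 symbols entered repeatedly were summed, and edgeR 4.0.16 in R 4.3.3 (TMM, filterByExpr with a minimum count of 10, quasi-likelihood test without a block, Benjamini-Hochberg adjustment over 12514 genes) compared 1CT-A with 1CT. Standard errors were taken from the test statistic. The fit was also run on simulated counts with a common dispersion for all genes and few changed genes. These settings differ from the data, so that run does not measure the error rate here. Totals per library limit precision for genes of few counts.

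Alternatives were DESeq2 size factors or library size alone for scaling, the filter dropped or raised to 10 counts in each of the libraries, DESeq2 1.42.0 and limma 3.58.1 (voom) as other tools, the replicate block, the per-gene two-tailed test of the study's methods on log2(CPM + 1), and leaving out each library. Named genes are the members, APC, and up to 4 called rises and 4 falls per list with a mean of at least 5 CPM, beside the genes most like TNFAIP3. The members and lists were chosen with earlier results of these data known. Promoter sequences and positions are RefSeq's on GRCh38.p14, trimmed at the GENCODE release 44 gene start, not on the build behind the counts.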

Additional observations from a re-analysis of the deposited data

How the results depend on the processing

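The 6 falls among the members held under every edgeR setting with all 6 libraries, under DESeq2 and under limma-voom. The per-gene two-tailed test and the fit without 1CT replicate 3 each left 4, without NFKB2 and REL, and the fit without 1CT-A replicate 3 left 5, without REL. Across genes, 1CT replicate 3 departed most from the other 1CT libraries. Chi-square per degree of freedom was 7.54 and 9 in its pairs, and 3.8 between 1CT replicates 1 and 2. Why that library departs was not tested. Over the 14 alternatives, 0 members were called higher, and 4 to 5 passed the 2-fold and p under 0.01 thresholds. Pathway genes called higher ran from 11 to 18 and those called lower from 26 to 34; both were fewest with at least 10 counts required in every library, which tests fewer genes. The same filter cut the called ligands from 4 to 1, the called receptors from 6 to 4 and the called target genes from 19 to 13. The per-gene test cut the called adaptors and ubiquitin enzymes from 10 to 6, and the cause of that cut was not tested. No direction reversed among the 10 members and the 26 other genes named by rule; of pathway genes that were not called, some, IKBKG among them (-0.11 to 0.07), changed sign when a library was left out. Of the 26 other named genes, 7 lost their call under at least 1 alternative. The labels do not say that the replicate numbers both lines share mark pairs, and no clear pairing was seen. Deviations of same-numbered libraries correlated between -0.162 and 0.219 over 8231 genes, and 2 of 6 libraries correlated best with their own number. With 3 libraries a side this check cannot exclude a weak pairing. With the replicate block 6 members were lower, TNFAIP3 had a log2 fold change of -3.25 and RELB of -1.51, and apart from IRAK1 and TNFRSF1B no named gene lost its call. Counts near 10 in 1CT-A limit the precision for BIRC3 and TNFAIP3.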
